A study of Rattus norvegicus with 12 samples.

Results

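The forkhead (Fox), SRY-related HMG-box (Sox) and T-box (Tbx) genes encode 3 families of transcription factors, and their RNA levels were followed in PAC1 cells after depletion of 3 RNA-binding proteins. Members were taken by symbol alone, as every gene of the count table named Fox with a letter from a to s and a number, Sox with a number or Tbx with a number, leaving out Foxm1. The rule gave 76 of the 33294 genes in the table, namely 44 Fox, 19 Sox and 13 Tbx genes. The rule itself uses no expression value, although it was set with earlier results of these data known. Of the 76, 49 had enough counts to be tested, comprising 29 Fox, 12 Sox and 8 Tbx genes.

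PAC1 is a line of vascular smooth muscle from the pulmonary artery of the rat, and the study describes the cells used here as being grown in the differentiated state. The study also reports that control cells of its RBPMS, RBFOX2 and QK experiment had a lower degree of differentiation than those of its other experiment, by RNA levels and splicing. All 12 libraries came from cells that received 90 pmol of an siRNA by reverse transfection with Lipofectamine RNAiMAX, then a second dose after 24 h, and were harvested 48 h after that, per the labels. The control group (3 libraries) received C2, a scrambled siRNA, and the RBPMS-KD, RBFOX2-KD and QKI-KD groups (3 libraries each) received an siRNA against RBPMS, RBFOX2 or QKI, whose gene is listed as Qk. The study itself describes longer intervals, a disagreement that could not be settled here. Poly(A)-selected RNA was sequenced, so the values are RNA levels of a whole culture, in which fewer cells of a kind and less RNA per cell cannot be told apart. The sources give 1 siRNA sequence per target, so an effect of the sequence itself cannot be told apart from an effect of the depletion.

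The 4 siRNAs define the groups and are shown as sense strands, 5′ to 3′, in lower case.
C2: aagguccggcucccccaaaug
RBPMS: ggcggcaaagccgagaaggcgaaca
RBFOX2: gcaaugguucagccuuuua
QKI: ggacuuacagcuaaacaac

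Each family is named for its DNA-binding domain. Forkhead proteins bind through a winged helix, and the FoxO class is held out of the nucleus when insulin or growth factor signalling through AKT is active. Sox proteins bend DNA through an HMG box, with the SoxC class in progenitor cells, the SoxE protein SOX9 and its SoxD partners in cartilage, and the SoxF class in endothelium. T-box proteins include the repressors TBX2 and TBX3 of the developing heart and TBX18, a factor of mural cells (smooth muscle cells and pericytes). In vascular and visceral mesenchyme, FOXC1, FOXC2, FOXF1 and FOXF2 are known as regulators of development.

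RBPMS, RBFOX2 and QKI are splicing regulators. Each siRNA lowered its own target. Rbpms was 5.64-fold lower in RBPMS-KD (7.21 ± 0.301 CPM, SD, n = 3, against 40.7 ± 2.60 in control), Rbfox2 was 4.14-fold lower in RBFOX2-KD (37.3 ± 0.943 against 154 ± 4.37 CPM), and Qk was 8.77-fold lower in QKI-KD (26.6 ± 0.649 against 233 ± 7.04 CPM). CPM are counts per 1 M counts of the TMM-scaled library total, and all levels below are in CPM. The targets were not independent of each other, since Rbpms was also lower in RBFOX2-KD (log2 fold change -0.81) and QKI-KD (-0.49), and Qk was lower in RBFOX2-KD (-0.42). Library totals lay between 111 and 152 M counts. The 10 smooth muscle markers were all detected, and their summed level ran from 2168 to 2236 CPM in control, 1106 to 1215 in RBPMS-KD, 867 to 966 in RBFOX2-KD and 1467 to 1557 in QKI-KD, though not every marker fell. In RBPMS-KD 3 of the 10 passed the test as higher and 7 as lower, in RBFOX2-KD 2 and 6, and in QKI-KD 3 and 6, with Des higher in RBPMS-KD and QKI-KD (log2 fold change 0.65 and 0.98) and Myh11 higher in RBFOX2-KD (1.05). The 7 fibroblast and pericyte markers summed to 7936 to 9103 CPM in control and to between 14607 and 17866 in the knockdown libraries, mostly as Col1a1, a collagen gene that was higher in each knockdown (1.03, 0.94 and 1.02 in RBPMS-KD, RBFOX2-KD and QKI-KD). Without Col1a1 their sum ran from 637 to 715 CPM in control, 692 to 819 in RBPMS-KD, 786 to 816 in RBFOX2-KD and 374 to 378 in QKI-KD, where the other 5 tested were all lower. The members moved beside these shifts, whose part in the results was not tested.

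Between 4 and 11 of the 49 tested members changed in a knockdown, most of them downward. A gene is called changed at an adjusted p under 0.05 (edgeR's quasi-likelihood test, Benjamini-Hochberg over all 18438 genes tested) with a level at least 2-fold apart, that is a log2 fold change beyond 1 in either direction, and it is said to have passed the test at the adjusted p alone. In QKI-KD 11 members changed (22.4%), 9 of them lower and 2 higher, where 17.5% of all genes tested changed, 9.24% lower and 8.28% higher. In RBFOX2-KD 7 changed (14.3%), 5 lower and 2 higher, with 11.7% over all genes, 4.73% lower and 6.96% higher. In RBPMS-KD 4 changed (8.16%), all lower, with 9.66% over all genes, 4.5% lower and 5.16% higher. The QKI-KD count includes Sox15, which had enough counts to be tested only through the QKI-KD libraries, where it was higher. Each share lay near that of all genes, so the number of changed members is not a result about these families.

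Members that passed the test, the changed ones included, were more often lower than higher in RBPMS-KD and QKI-KD. At the adjusted p alone, 22 members were lower and 10 higher in RBPMS-KD, where 29% and 30.4% of all genes were lower and higher. In QKI-KD 23 were lower and 8 higher, against 34% and 32.9% of all genes, and in RBFOX2-KD 16 were lower and 12 higher, against 30.1% in each direction. The median log2 fold change of the members was -0.19 in RBPMS-KD, -0.04 in RBFOX2-KD and -0.30 in QKI-KD, whereas the median of all genes tested was 0.01 in each. Libraries of a knockdown and control did not overlap for 33, 34 and 33 of the 49 members in the same order of knockdowns, with 61.7%, 68.6% and 72.3% over all genes. The 3 comparisons share their control libraries.

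The members that changed mostly differed from 1 knockdown to the next. Over the 3 knockdowns 18 members changed at least once, 2 of them in 2 knockdowns (Tbx2 and Tbx10) and 1 in all 3 (Foxs1). The matching shares over all genes were not counted, so these numbers are not a result about the families. Passing the test in the lower direction in all 3 knockdowns was seen for 9 of 49 members (Foxc1, Foxc2, Foxf1, Foxo4, Foxp2, Foxs1, Tbx3, Tbx15 and Tbx18), with 12.5% over all genes. The smallest of these differences, that of Foxc2 in RBPMS-KD, failed the test when only the 6 libraries compared were fitted and without the third control or the second RBPMS-KD library, and that of Tbx3 in RBFOX2-KD failed it with library totals only. Higher in all 3 were 0 members, with 12.3% over all genes.

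**Figure D1:**
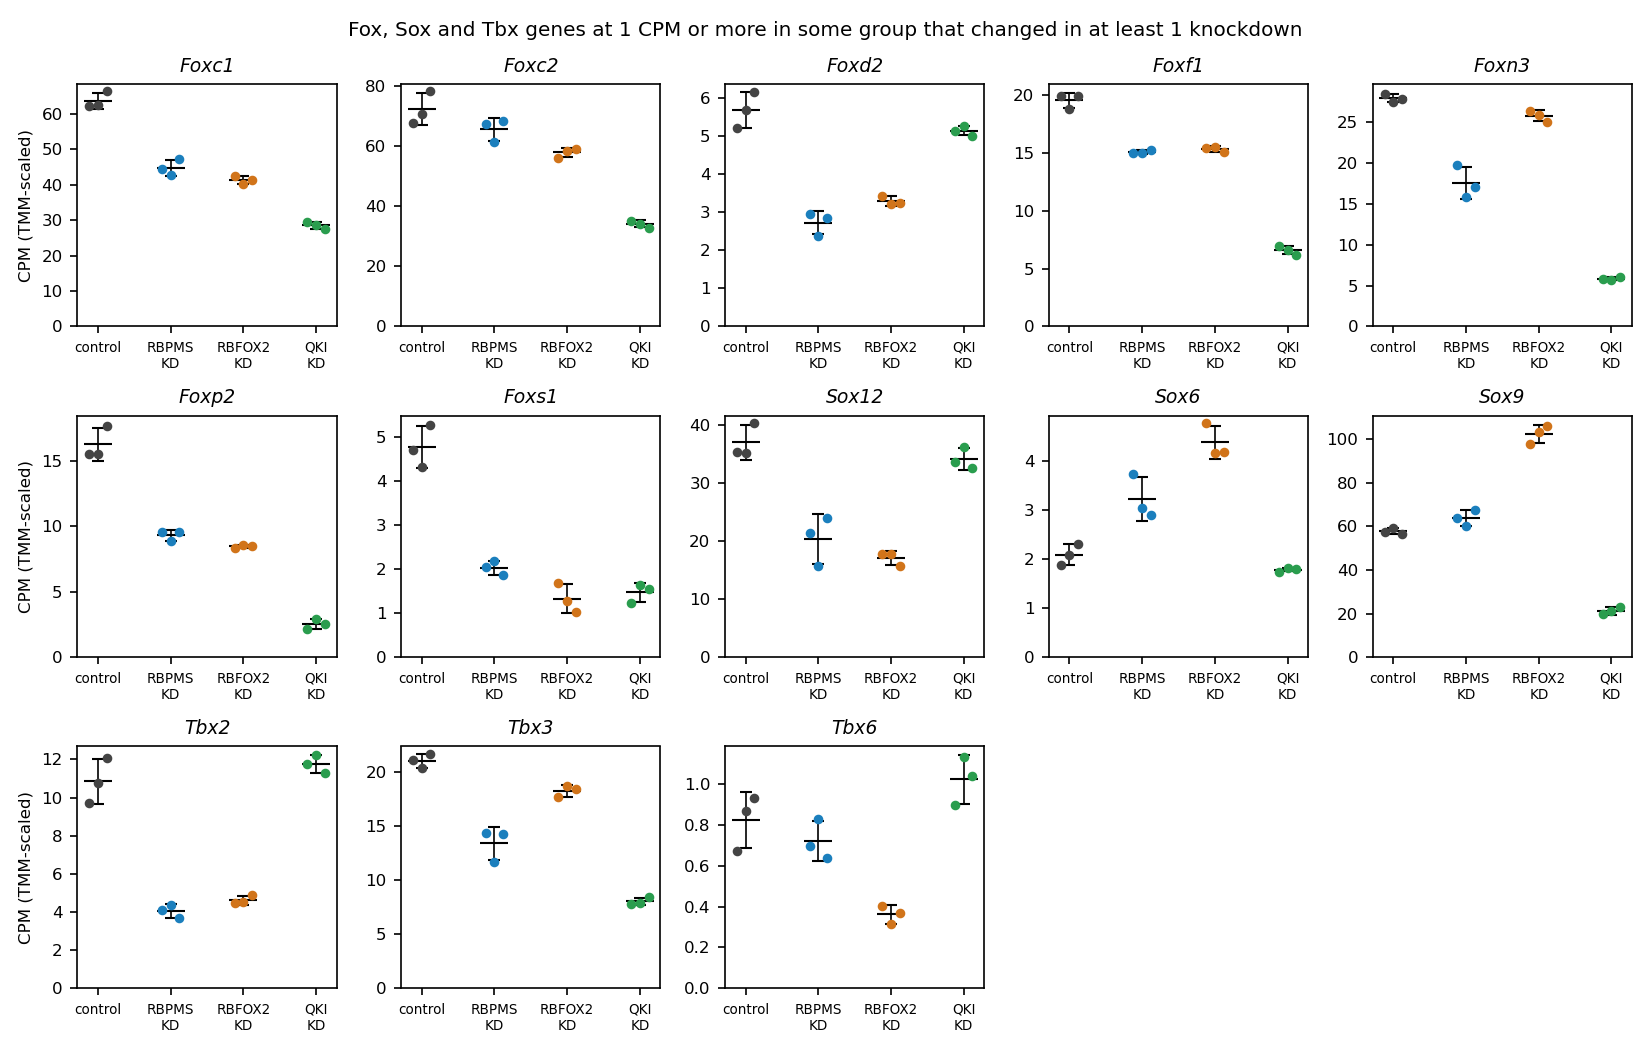
Level in CPM (vertical axis, from 0) of the 13 members at 1 CPM or more in some group that changed in at least 1 knockdown. Points are the 3 libraries of each group and bars the mean with SD. Foxn3, Foxp2, Sox9 and Tbx3 are lowest in the QKI-KD libraries, whereas Tbx2 is low in RBPMS-KD and RBFOX2-KD and at the control level in QKI-KD.

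The FoxC and FoxF genes, which encode regulators of vascular and visceral mesenchyme, were lowest after QKI depletion with the exception of Foxf2. Foxc1 lay at 62.2, 62.4 and 66.4 CPM in control, 44.5, 42.7 and 47.3 CPM in RBPMS-KD, 42.5, 40.3 and 41.4 CPM in RBFOX2-KD, and 29.4, 28.8 and 27.5 CPM in QKI-KD. The 4 groups were ordered from control at the top to QKI-KD at the bottom, and no groups overlapped, although RBPMS-KD and RBFOX2-KD came close. It was 2.23-fold lower in QKI-KD (log2 fold change -1.16, SE 0.045, adjusted p = 3.27e-13), and passed the test at smaller differences in RBPMS-KD (log2 fold change -0.51) and RBFOX2-KD (-0.62). Foxc2 lay at 67.8, 70.9 and 78.3 CPM in control, 67.3, 61.3 and 68.3 CPM in RBPMS-KD, 56.2, 58.4 and 59.1 CPM in RBFOX2-KD, and 35.2, 34.2 and 32.9 CPM in QKI-KD. The QKI-KD libraries stood clear of every other library, while those of RBPMS-KD overlapped control. Foxc2 was 2.12-fold lower in QKI-KD (log2 fold change -1.08, SE 0.053, adjusted p = 6.94e-12), a change that sits near the 2-fold limit and falls just inside it when libraries are scaled by their totals only.

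Foxf1, a factor of lung and gut mesenchyme, lay at 20.0, 18.8 and 19.9 CPM in control, 15, 15 and 15.3 CPM in RBPMS-KD, 15.4, 15.5 and 15.1 CPM in RBFOX2-KD, and 6.94, 6.64 and 6.19 CPM in QKI-KD. RBPMS-KD and RBFOX2-KD formed 1 overlapping step below control, and QKI-KD a second, lower step. The fall in QKI-KD was 2.97-fold (log2 fold change -1.57, SE 0.052, adjusted p = 3.63e-14), and QKI-KD was also below RBPMS-KD (log2 fold change -1.19, SE 0.052, adjusted p = 2.75e-12) and RBFOX2-KD (log2 fold change -1.22, SE 0.052, adjusted p = 1.18e-12).

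Foxf2 behaved in another way. It lay at 53.4, 59 and 47.7 CPM in control, 60.4, 62.6 and 72.7 CPM in RBPMS-KD, 25.6, 27.2 and 27.5 CPM in RBFOX2-KD, and 67.8, 67.8 and 75.3 CPM in QKI-KD. Its RBFOX2-KD libraries were the lowest of all 12, and its QKI-KD libraries lay above those of control. The RBFOX2-KD difference of -0.996 (SE 0.075, adjusted p = 3.73e-09) ended just short of the 2-fold limit, whereas Foxf2 was somewhat higher in RBPMS-KD (log2 fold change 0.29, SE 0.073, adjusted p = 0.0025) and in QKI-KD (log2 fold change 0.40, SE 0.073, adjusted p = 1.21e-04). Compared directly, Foxf2 was 2.44-fold lower in RBFOX2-KD than in RBPMS-KD (log2 fold change -1.29, SE 0.075, adjusted p = 3.03e-10) and 2.63-fold higher in QKI-KD than in RBFOX2-KD (log2 fold change 1.39, SE 0.075, adjusted p = 2.84e-11).

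Foxq1, a factor known from hair and from epithelial cancers, lay at 45.4, 51 and 34.8 CPM in control, 64.1, 67.7 and 78.3 CPM in RBPMS-KD, 41, 43.8 and 44.6 CPM in RBFOX2-KD, and 71.4, 67.5 and 78.4 CPM in QKI-KD. It passed the test as higher in RBPMS-KD (log2 fold change 0.68, SE 0.102, adjusted p = 1.84e-05) and QKI-KD (log2 fold change 0.73, SE 0.101, adjusted p = 6.24e-06), with libraries clear of control, and differed little in RBFOX2-KD (-0.02, adjusted p = 0.877). Foxl1, a gene of gut mesenchyme, was at 1.30 ± 0.0883 CPM (SD, n = 3) in control, with differences of -0.31, 0.31 and -0.07 in RBPMS-KD, RBFOX2-KD and QKI-KD. The first 2 passed the test only narrowly (adjusted p = 0.0447 and 0.0341), and both failed it with DESeq2 or with no filter on low counts.

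These genes sit together in the genome. In the order of genes in RefSeq's rat assembly GRCr8, Foxc1, Foxf2 and Foxq1 follow each other on chromosome 17 with no other coding gene between them, and on chromosome 19 Foxf1 is separated from Foxc2 by 1 coding gene and Foxc2 lies next to Foxl1. Within the chromosome 17 group the members did not move alike, since Foxc1 was 2.23-fold lower in QKI-KD while Foxf2 and Foxq1 were 1.32-fold and 1.65-fold higher. Within the chromosome 19 group Foxf1 and Foxc2 were both lower in all 3 knockdowns, and Foxl1 was not distinguishable from control in QKI-KD (adjusted p = 0.638). Tbx2 and Tbx4 on chromosome 10, Tbx3 and Tbx5 on chromosome 12, and Foxd2 and Foxe3 on chromosome 5 are also next to each other, and in each of these pairs 1 of the genes (Tbx4, Tbx5 and Foxe3) had few counts.

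The 250 bases before the start of the 3 chromosome 17 genes are shown because the members are neighbours that moved in opposite directions in QKI-KD. The sequences are RefSeq's for GRCr8, another build than the one the authors aligned to, all on the minus strand and written 5′ to 3′ in the direction of the gene, with CCAAT boxes on the antisense strand (read as ATTGG) in capitals.
Foxc1, chr17:32844101-32844350: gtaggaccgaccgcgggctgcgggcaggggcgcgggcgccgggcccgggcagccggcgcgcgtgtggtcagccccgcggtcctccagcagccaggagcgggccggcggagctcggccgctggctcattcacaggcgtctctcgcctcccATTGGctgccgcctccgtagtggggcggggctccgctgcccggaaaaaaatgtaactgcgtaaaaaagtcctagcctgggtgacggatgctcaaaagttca
Foxf2, chr17:33051260-33051509: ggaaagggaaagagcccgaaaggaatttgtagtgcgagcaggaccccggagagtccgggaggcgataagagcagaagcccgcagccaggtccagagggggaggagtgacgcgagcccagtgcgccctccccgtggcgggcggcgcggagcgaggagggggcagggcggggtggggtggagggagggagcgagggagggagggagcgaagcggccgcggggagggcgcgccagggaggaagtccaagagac
Foxq1, chr17:33124088-33124337: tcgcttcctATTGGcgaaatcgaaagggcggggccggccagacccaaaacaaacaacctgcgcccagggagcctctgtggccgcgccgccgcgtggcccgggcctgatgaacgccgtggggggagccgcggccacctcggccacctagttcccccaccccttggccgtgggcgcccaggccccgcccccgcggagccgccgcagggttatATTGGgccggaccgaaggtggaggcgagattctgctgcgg

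The 5 short motifs searched on both strands of these windows, in which letters could be shared between neighbouring motifs, were the forkhead core TGTTTA, the SOX core AACAAT, the T-box site GGTGTGA, the CCAAT box and the TATA box TATAAA. Foxc1 held a CCAAT box 101 bases before its start, Foxq1 held CCAAT boxes at 241 and 40 bases, and Foxf2 held none of the 5 motifs. RefSeq gave such windows for 50 of the 76 members, 55 windows in all. Among them 3 held the forkhead core (5.45%, against 12.14% of 33469 windows of all genes), 4 the SOX core (7.27% against 10.33%), 1 the T-box site (1.82% against 3.22%), 23 the CCAAT box (41.82% against 34.02%) and 6 the TATA box (10.91% against 12.93%). The windows of the members had a median GC content of 62.4%, against 51.2% over all windows, and the shares were not adjusted for it.

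**Figure D2:**
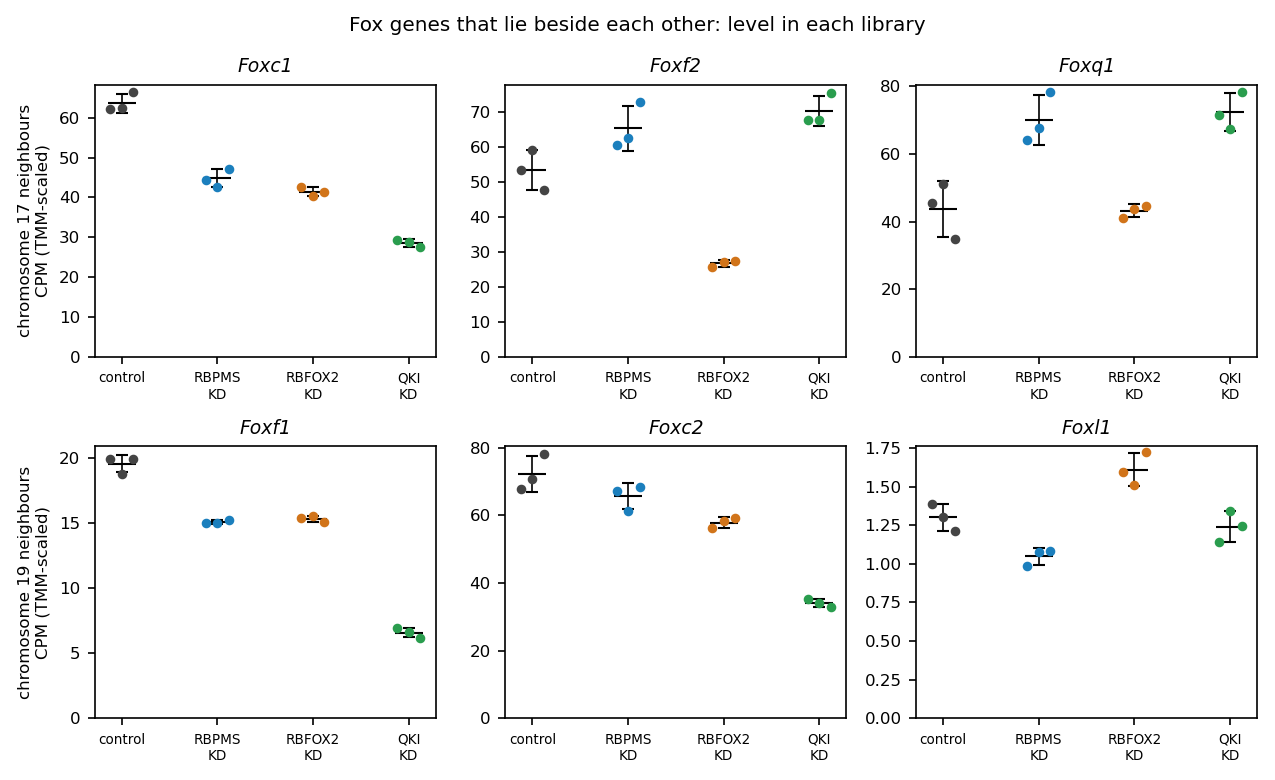
Level in CPM (vertical axis, from 0) of Foxc1, Foxf2 and Foxq1, neighbours on chromosome 17 (upper row), and of Foxf1, Foxc2 and Foxl1, neighbours on chromosome 19 (lower row). Points are libraries and bars the mean with SD. In QKI-KD Foxc1 is below control while Foxf2 and Foxq1 are above it, and Foxf1 and Foxc2 are both below.

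Foxs1, a forkhead gene of pericytes and other perivascular cells, was the 1 member that changed in all 3 knockdowns. It lay at 4.69, 4.32 and 5.27 CPM in control, 2.05, 2.17 and 1.86 CPM in RBPMS-KD, 1.69, 1.27 and 1.04 CPM in RBFOX2-KD, and 1.23, 1.64 and 1.55 CPM in QKI-KD. No knockdown library reached the lowest control library, and RBFOX2-KD overlapped QKI-KD. Foxs1 was 2.34-fold lower in RBPMS-KD (log2 fold change -1.23, SE 0.146, adjusted p = 1.28e-06), 3.57-fold lower in RBFOX2-KD (log2 fold change -1.84, SE 0.150, adjusted p = 1.10e-08) and 3.24-fold lower in QKI-KD (log2 fold change -1.69, SE 0.150, adjusted p = 2.05e-08). A test against the 2-fold limit itself (glmTreat) did not pass for RBPMS-KD. Among the other changed members at 1 CPM or more, it also failed for Foxd2 in RBPMS-KD, Foxc2 in QKI-KD, and Sox12, Sox6 and Tbx6 in RBFOX2-KD. Foxd2, expressed in mesenchyme and kidney, lay at 5.21, 5.69 and 6.17 CPM in control, 2.95, 2.38 and 2.84 CPM in RBPMS-KD, 3.43, 3.21 and 3.25 CPM in RBFOX2-KD, and 5.15, 5.27 and 5.02 CPM in QKI-KD. Both RBPMS-KD and RBFOX2-KD were clear of control, and QKI-KD overlapped it. The change in RBPMS-KD was 2.10-fold (log2 fold change -1.07, SE 0.090, adjusted p = 1.79e-08) and that in RBFOX2-KD fell short of the limit (log2 fold change -0.79, SE 0.087, adjusted p = 5.16e-07). The RBPMS-KD value also fell short of 2-fold without the second RBPMS-KD library (-0.98) and with limma on the normalised table (-0.93).

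The FoxP genes, whose products act as repressors in pairs with each other, split by member. Foxp1 took the most counts of the Fox genes, which is no comparison of transcript levels since no lengths were used, and lay at 207, 203 and 208 CPM in control, 246, 226 and 236 CPM in RBPMS-KD, 221, 219 and 218 CPM in RBFOX2-KD, and 152, 146 and 152 CPM in QKI-KD. Its RBPMS-KD and RBFOX2-KD libraries were above control and its QKI-KD libraries below. The differences were small, at log2 fold change 0.19, SE 0.034, adjusted p = 9.95e-05 in RBPMS-KD, log2 fold change 0.09, SE 0.034, adjusted p = 0.0312 in RBFOX2-KD and log2 fold change -0.46, SE 0.034, adjusted p = 2.38e-09 in QKI-KD. The RBFOX2-KD one failed the test with other size factors (RLE), with no filter on low counts and without any of 8 of the 12 libraries in turn.

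Foxp2, a factor of lung epithelium and of neurons, fell furthest of the members at 1 CPM or more. It lay at 15.5, 15.5 and 17.7 CPM in control, 9.52, 8.84 and 9.54 CPM in RBPMS-KD, 8.35, 8.57 and 8.47 CPM in RBFOX2-KD, and 2.19, 2.93 and 2.55 CPM in QKI-KD. The groups were ordered as control, RBPMS-KD, RBFOX2-KD and QKI-KD with no overlap between any of them. It was 6.38-fold lower in QKI-KD (log2 fold change -2.67, SE 0.086, adjusted p = 2.71e-14), 1.92-fold lower in RBFOX2-KD (log2 fold change -0.94, SE 0.076, adjusted p = 9.71e-09) and 1.75-fold lower in RBPMS-KD (log2 fold change -0.81, SE 0.076, adjusted p = 7.91e-08), the latter 2 short of the 2-fold limit. Directly compared, QKI-KD was below both RBFOX2-KD (log2 fold change -1.73, SE 0.087, adjusted p = 1.12e-11) and RBPMS-KD (log2 fold change -1.87, SE 0.088, adjusted p = 7.05e-12). Foxp4, which acts with FOXP1 and FOXP2, was at 51.6 ± 0.453 CPM in control and 61.2 ± 2.21 in QKI-KD (log2 fold change 0.25, SE 0.052, adjusted p = 4.44e-04).

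The FoxO genes encode the forkhead factors that AKT inactivates. Foxo3 lay at 75.5, 75.6 and 75.2 CPM in control, 78.1, 72.5 and 77.8 CPM in RBPMS-KD, 71.5, 74.7 and 74.4 CPM in RBFOX2-KD, and 55.6, 55.7 and 58.1 CPM in QKI-KD. Its QKI-KD libraries lay well below the others, 1.34-fold lower than control (log2 fold change -0.42, SE 0.037, adjusted p = 2.23e-08), and its RBFOX2-KD libraries just under control (-0.04, adjusted p = 0.42). Foxo4 lay at 46.5, 46.3 and 45.5 CPM in control, 32.5, 32.3 and 32.3 CPM in RBPMS-KD, 35.2, 34.7 and 34.6 CPM in RBFOX2-KD, and 33.8, 34.8 and 33.6 CPM in QKI-KD. All 9 knockdown libraries were below every control library, by 1.43-fold in RBPMS-KD, 1.32-fold in RBFOX2-KD and 1.35-fold in QKI-KD, with adjusted p of 8.78e-10, 1.37e-08 and 3.28e-09. Foxo1 had means of 15.6, 12.9, 17.8 and 11.4 CPM in control, RBPMS-KD, RBFOX2-KD and QKI-KD, and Foxo6 of 3.30, 2.34, 3.94 and 3.40 CPM. Both passed the test as lower in RBPMS-KD (-0.28 and -0.50) and as higher in RBFOX2-KD (0.20, adjusted p = 0.0219, and 0.26, adjusted p = 0.012). Foxo1 was also lower in QKI-KD (log2 fold change -0.45, SE 0.071, adjusted p = 2.51e-05), where Foxo6 did not pass (0.04, adjusted p = 0.656). The Foxo1 call in RBFOX2-KD was lost without any of 4 libraries and that of Foxo6 without the second RBFOX2-KD library. No FoxO gene changed by 2-fold.

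Genes around the FoxO factors were followed as a list of 36, holding parts of insulin and AKT signalling and known FoxO targets, all of which were tested. In QKI-KD 9 of 36 changed (25%, with 17.5% over all genes), 7 lower and 2 higher. Ccnd2, the cyclin D2 gene that FoxO factors repress, fell 16.8-fold, with means of 28.6 ± 2.01 CPM in control and 1.71 ± 0.304 in QKI-KD (log2 fold change -4.07, SE 0.107, adjusted p = 2.04e-15). Pik3ip1, which encodes an inhibitor of PI3 kinase, fell 5.94-fold (-2.57), and Ccnd1, the cyclin D1 gene, fell from 1262 ± 53.3 to 268 ± 7.41 CPM (-2.23). Gadd45a, a gene induced by DNA damage, rose 2.60-fold (1.38).

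In RBPMS-KD 7 list genes changed (19.4%, with 9.66% over all genes), 4 higher and 3 lower. Gadd45a rose 3.24-fold (log2 fold change 1.70, SE 0.082, adjusted p = 1.65e-11), Klf4, a repressor of smooth muscle genes, rose 2.09-fold (log2 fold change 1.07, SE 0.046, adjusted p = 3.85e-12), and Pik3ip1 and Ccnd2 fell 3.12-fold and 3.04-fold (-1.64 and -1.60). Klf4 went the other way in QKI-KD, where it was 2.24-fold lower than control (log2 fold change -1.17, SE 0.047, adjusted p = 4.97e-13). In RBFOX2-KD 5 changed (13.9%, with 11.7% over all genes), 2 higher and 3 lower. Ccnd2 fell 5.93-fold (-2.57), Sesn2, a stress-response gene, fell 2.73-fold (-1.45), Bnip3, a mitophagy gene, fell 2.34-fold (-1.23), and Irs1, an insulin receptor substrate, rose 3.04-fold (1.60). Ccnd2 lay below every control library in all 9 knockdown libraries, at 26.4, 29.2 and 30.3 CPM in control, 10.6, 8.41 and 9.24 CPM in RBPMS-KD, 4.74, 4.65 and 5.11 CPM in RBFOX2-KD, and 1.54, 2.06 and 1.53 CPM in QKI-KD. The list's median log2 fold change was -0.03 in RBPMS-KD, -0.11 in RBFOX2-KD and -0.21 in QKI-KD. The list was chosen with earlier results of these data known.

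Among the FoxK, FoxJ, FoxN and FoxA genes, 1 changed against control, namely Foxn3 in QKI-KD. Foxn3, which encodes a checkpoint repressor, lay at 28.5, 27.5 and 27.9 CPM in control, 19.8, 15.9 and 17.1 CPM in RBPMS-KD, 26.4, 26 and 25.1 CPM in RBFOX2-KD, and 5.77, 5.72 and 6.09 CPM in QKI-KD. RBFOX2-KD lay just under control, RBPMS-KD below it and QKI-KD far below, without overlap. It was 4.77-fold lower in QKI-KD (log2 fold change -2.26, SE 0.067, adjusted p = 1.03e-14) and 1.59-fold lower in RBPMS-KD (log2 fold change -0.67, SE 0.062, adjusted p = 5.43e-08), and QKI-KD was 4.41-fold below RBFOX2-KD (log2 fold change -2.14, SE 0.067, adjusted p = 2.25e-14). Its relative Foxn2 was a little higher in RBPMS-KD and QKI-KD (0.20 and 0.24), from 75.3 ± 1.85 CPM in control, and Foxn1, the thymic epithelial factor, was at 3.07 ± 0.245 CPM in control and passed no test.

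Foxk2, which encodes a repressor of autophagy and metabolic genes, moved in opposite directions in 2 knockdowns. It lay at 55.8, 59.5 and 58.1 CPM in control, 81.4, 76.7 and 81.2 CPM in RBPMS-KD, 96.8, 96.8 and 96.1 CPM in RBFOX2-KD, and 38.5, 39.6 and 42.3 CPM in QKI-KD. The groups did not overlap, with QKI-KD lowest and RBFOX2-KD highest. Neither difference reached 2-fold against control (RBFOX2-KD, log2 fold change 0.74, SE 0.040, adjusted p = 5.28e-11, and QKI-KD, log2 fold change -0.53, SE 0.041, adjusted p = 3.42e-09), and the direct difference did, with QKI-KD 2.41-fold below RBFOX2-KD (log2 fold change -1.27, SE 0.041, adjusted p = 3.08e-14). Foxk2 also passed the test as higher in RBPMS-KD (log2 fold change 0.46, SE 0.040, adjusted p = 2.58e-08). QKI-KD minus RBPMS-KD ended just short of the limit (log2 fold change -0.99, SE 0.041, adjusted p = 1.26e-12). Foxk1 was at 31.2 ± 0.667 CPM in control and passed the test in QKI-KD only (-0.35). Foxj3, which encodes an activator of a MEF2 gene in muscle, had means of 67.1, 75.5, 82.8 and 54.7 CPM in control, RBPMS-KD, RBFOX2-KD and QKI-KD. It was higher than control in RBPMS-KD (0.17) and RBFOX2-KD (0.30) and lower in QKI-KD (-0.30). Foxj2 had a mean of 64.6 CPM in control and was lower in RBPMS-KD (-0.18) and QKI-KD (-0.31).

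Foxa2, a pioneer factor of endoderm, was detected in every library of these cells at 19.1, 19.4 and 17.9 CPM in control, 25.2, 26.5 and 25.1 CPM in RBPMS-KD, 36.4, 36.1 and 36.3 CPM in RBFOX2-KD, and 16.3, 14.5 and 15.4 CPM in QKI-KD. The RBFOX2-KD libraries were the highest and the QKI-KD libraries the lowest, without overlap between groups. It was 1.93-fold higher in RBFOX2-KD (log2 fold change 0.95, SE 0.047, adjusted p = 1.74e-11), short of the limit, and 2.35-fold lower in QKI-KD than in RBFOX2-KD (log2 fold change -1.23, SE 0.048, adjusted p = 3.70e-13). The 6 epithelial markers summed to 30.0 to 31.9 CPM in control, 36.4 to 44.3 in RBPMS-KD, 72.1 to 74.0 in RBFOX2-KD and 37.2 to 40.8 in QKI-KD, mostly as Krt8 (30.6 ± 1.18 CPM in control and 72.6 ± 0.975 in RBFOX2-KD), with 1 of the 6 at 3 counts or fewer in every library. Without Krt8 the sum ran from 0.425 to 0.705 CPM in control, 0.214 to 0.263 in RBPMS-KD, 0.289 to 0.377 in RBFOX2-KD and 5.60 to 7.34 in QKI-KD, the group in which Foxa2 was lowest. Cldn4, Epcam and Cdh1, the other 3 tested, were higher in QKI-KD than in control (log2 fold change 3.92, 2.62 and 2.23) and than in RBFOX2-KD (5.68, 3.41 and 1.38). Their part in the Foxa2 difference was not tested. Foxa1, at 1.27 ± 0.0695 CPM in control, passed no test against control.

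**Figure D3:**
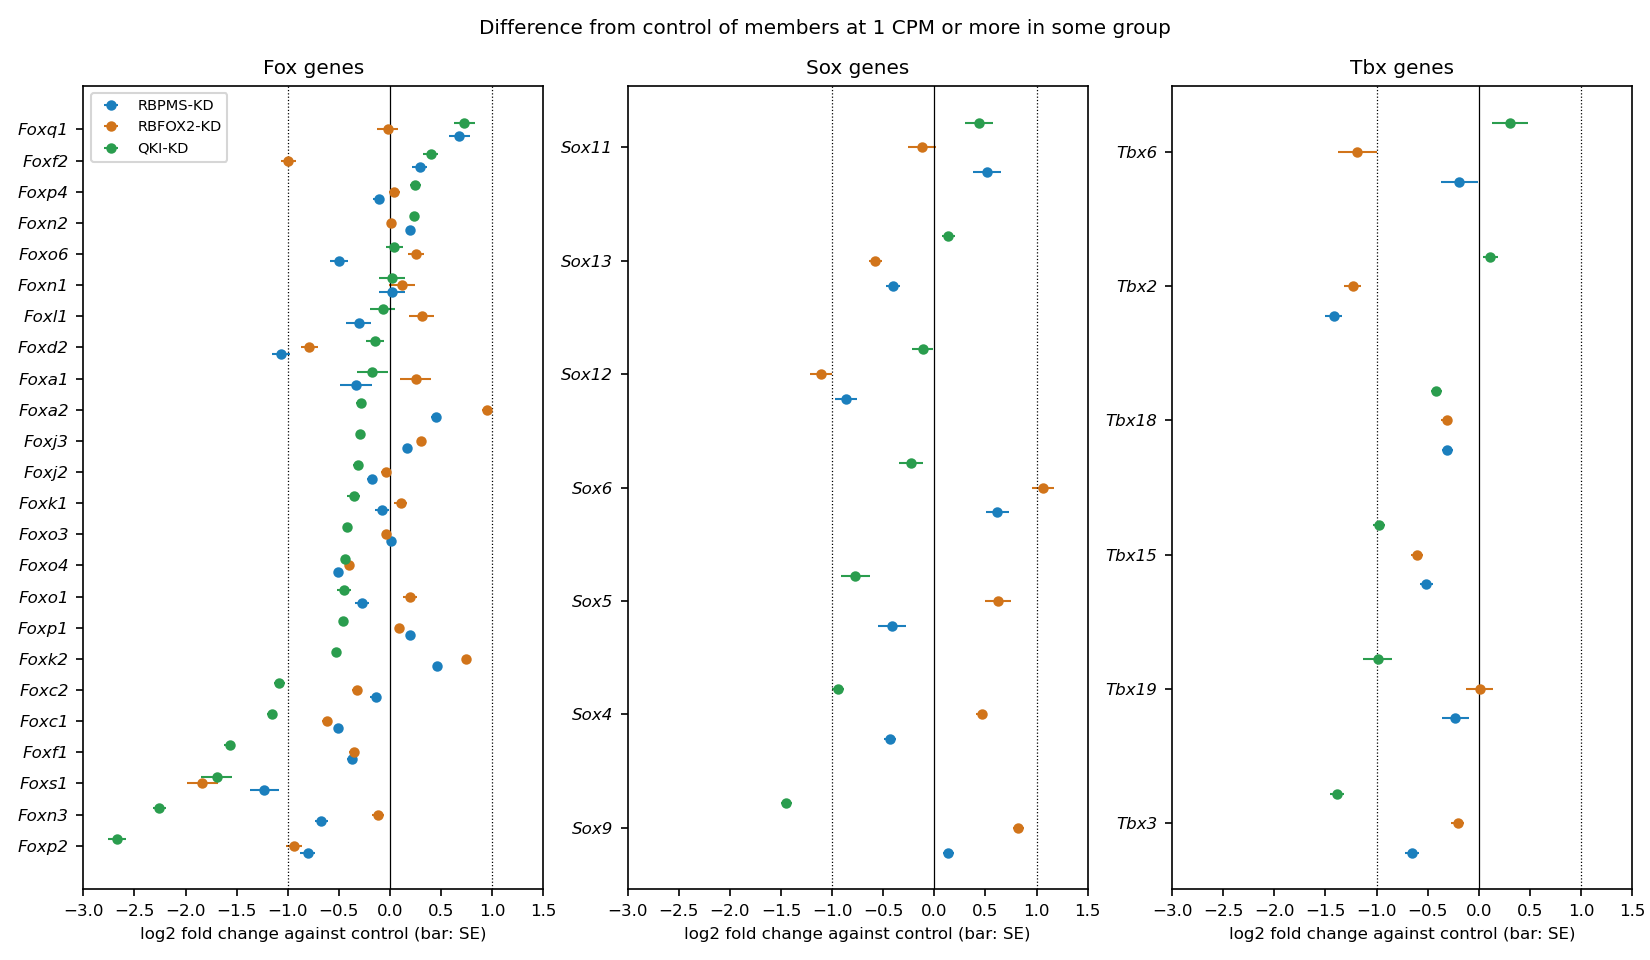
Log2 fold change against control (horizontal axis, bars SE) of the 37 members at 1 CPM or more in some group, by family, sorted by the QKI-KD value, with dotted lines at 2-fold. In QKI-KD Foxp2 (-2.67) and Foxn3 (-2.26) lie furthest below 0, and Sox9 is below 0 in QKI-KD (-1.45) and above it in RBFOX2-KD (0.82).

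Among the Sox genes at 1 CPM or more, Sox9 lay furthest apart between knockdowns. Sox9, the SoxE factor that drives cartilage genes, lay at 57.6, 59.3 and 56.5 CPM in control, 63.6, 60.0 and 67.4 CPM in RBPMS-KD, 97.6, 103 and 106 CPM in RBFOX2-KD, and 19.6, 21 and 22.9 CPM in QKI-KD. The RBFOX2-KD libraries were far above all others and the QKI-KD libraries far below, and RBPMS-KD lay just above control. It was 2.73-fold lower in QKI-KD (log2 fold change -1.45, SE 0.055, adjusted p = 2.48e-13) and 1.77-fold higher in RBFOX2-KD (log2 fold change 0.82, SE 0.053, adjusted p = 4.55e-10), short of the limit. Compared directly, QKI-KD was 4.83-fold below RBFOX2-KD (log2 fold change -2.27, SE 0.056, adjusted p = 9.98e-16) and 3.00-fold below RBPMS-KD (log2 fold change -1.59, SE 0.055, adjusted p = 1.32e-13). The small rise in RBPMS-KD (0.14, adjusted p = 0.032) failed the test with library totals only, with DESeq2, with limma on the normalised table and without any of 5 single libraries.

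The SoxC genes, known from progenitor cells, each moved in their own way. Sox4 took the most counts of the Sox genes and lay at 91.4, 87.3 and 107 CPM in control, 71.7, 68.8 and 71.4 CPM in RBPMS-KD, 132, 130.4 and 132 CPM in RBFOX2-KD, and 50.1, 51 and 47.7 CPM in QKI-KD. RBFOX2-KD was above every control library, RBPMS-KD and QKI-KD were below, and no groups overlapped. The differences against control stayed within 2-fold (RBPMS-KD, log2 fold change -0.43, SE 0.056, adjusted p = 3.62e-06, RBFOX2-KD, log2 fold change 0.46, SE 0.056, adjusted p = 1.42e-06, and QKI-KD, log2 fold change -0.94, SE 0.057, adjusted p = 1.17e-10), and QKI-KD was 2.65-fold below RBFOX2-KD (log2 fold change -1.40, SE 0.057, adjusted p = 6.46e-13).

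Sox12 lay at 35.3, 35.2 and 40.4 CPM in control, 21.4, 15.7 and 24 CPM in RBPMS-KD, 17.8, 17.8 and 15.7 CPM in RBFOX2-KD, and 33.5, 36.2 and 32.6 CPM in QKI-KD. RBPMS-KD and RBFOX2-KD were below control and overlapped each other, and QKI-KD overlapped control. Sox12 was 2.16-fold lower in RBFOX2-KD (log2 fold change -1.11, SE 0.107, adjusted p = 8.68e-08) and 1.82-fold lower in RBPMS-KD (log2 fold change -0.86, SE 0.107, adjusted p = 2.02e-06). Sox11 was at 3.76 ± 0.583 CPM in control and passed the test as higher in RBPMS-KD (log2 fold change 0.51, SE 0.135, adjusted p = 0.00347) and QKI-KD (log2 fold change 0.44, SE 0.135, adjusted p = 0.00852).

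The SoxD genes encode factors without an activation domain of their own, 2 of which, SOX5 and SOX6, work with SOX9 in cartilage. Sox5 lay at 2.94, 2.54 and 3.33 CPM in control, 2.31, 2.29 and 2.00 CPM in RBPMS-KD, 4.86, 4.73 and 3.97 CPM in RBFOX2-KD, and 2.06, 1.69 and 1.38 CPM in QKI-KD. RBFOX2-KD stood above all other libraries, and QKI-KD and RBPMS-KD overlapped each other below control. It was higher in RBFOX2-KD (log2 fold change 0.62, SE 0.130, adjusted p = 4.96e-04) and lower in QKI-KD (log2 fold change -0.77, SE 0.140, adjusted p = 1.05e-04) and RBPMS-KD (log2 fold change -0.41, SE 0.138, adjusted p = 0.0159), each short of 2-fold. Directly, RBFOX2-KD was 2.05-fold above RBPMS-KD (log2 fold change 1.04, SE 0.135, adjusted p = 4.51e-06) and QKI-KD 2.63-fold below RBFOX2-KD (log2 fold change -1.40, SE 0.137, adjusted p = 7.76e-08). The first of these fell just short of 2-fold without any of 3 single libraries. The small RBPMS-KD difference failed the test with limma on the normalised table (adjusted p = 0.0689) and without the third control or the third RBPMS-KD library (0.0845 and 0.065).

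Sox6 lay at 1.88, 2.09 and 2.32 CPM in control, 3.73, 3.04 and 2.89 CPM in RBPMS-KD, 4.78, 4.17 and 4.19 CPM in RBFOX2-KD, and 1.75, 1.82 and 1.80 CPM in QKI-KD. RBFOX2-KD was highest and RBPMS-KD next, both clear of control. It was 2.09-fold higher in RBFOX2-KD (log2 fold change 1.06, SE 0.108, adjusted p = 1.86e-07), a value that fell to 0.99 without the first control or the first RBFOX2-KD library, and 1.53-fold higher in RBPMS-KD (log2 fold change 0.62, SE 0.111, adjusted p = 1.28e-04). Sox13 went the other way, from 13.7 ± 0.481 CPM in control to 10.4 ± 0.388 in RBPMS-KD and 9.19 ± 0.815 in RBFOX2-KD (-0.40 and -0.58), and did not pass the test in QKI-KD (0.14, adjusted p = 0.0767). In RBFOX2-KD Sox5, Sox6 and Sox9 thus passed the test as higher, while in QKI-KD Sox5 and Sox9 passed it as lower and Sox6 did not pass (-0.23, adjusted p = 0.0883).

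Cartilage genes known as SOX9 targets were followed as a list of 20, of which 18 were tested. In RBFOX2-KD 1 changed (5.56%, with 11.7% over all genes), Matn3, which encodes a matrilin and rose from 0.440 ± 0.0664 to 0.997 ± 0.0285 CPM. In QKI-KD 5 changed (27.8%, with 17.5% over all genes), 3 lower and 2 higher. Acan, the aggrecan gene, fell 2.59-fold to 1075 ± 76.3 CPM in QKI-KD (log2 fold change -1.38, SE 0.078, adjusted p = 5.06e-11) and Fmod, the fibromodulin gene, fell 2.23-fold to 11.7 ± 0.462 CPM in QKI-KD (log2 fold change -1.16, SE 0.101, adjusted p = 1.69e-08), while Col10a1 fell (-1.94) and Matn3 (1.63) and Snorc (1.05) rose, all 3 at under 5 CPM. In RBPMS-KD 3 changed (16.7%, with 9.66% over all genes), all lower, namely Fmod (log2 fold change -1.26, SE 0.102, adjusted p = 1.06e-08), Col10a1 (-2.37) and Col11a2 (-1.27). Acan was also lower in RBFOX2-KD (log2 fold change -0.83, SE 0.077, adjusted p = 5.62e-08), where Sox9 was higher. Col2a1, the collagen of cartilage, did not exceed 0.281 CPM in any library. The list's median log2 fold change was -0.13 in RBPMS-KD, 0.36 in RBFOX2-KD and -0.18 in QKI-KD, and like the FoxO list it was chosen with earlier results known. The genes with values under 5 CPM were named after their values were seen.

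No T-box gene passed the test as higher than control. Of the 8 tested, 5 passed as lower in RBPMS-KD, 6 in RBFOX2-KD and 4 in QKI-KD, with 29%, 30.1% and 34% over all genes. In the same order of knockdowns, 30.4%, 30.1% and 32.9% of all genes passed as higher. With 8 genes these counts were not read as a trait of the family. Tbx18, the mural cell factor, took the most counts of the family and lay at 85.5, 82.8 and 94.6 CPM in control, 76.5, 66.5 and 69.4 CPM in RBPMS-KD, 72.1, 68.1 and 71.4 CPM in RBFOX2-KD, and 66.8, 66.2 and 64.2 CPM in QKI-KD. All 9 knockdown libraries were below every control library. The falls were modest, at log2 fold change -0.31, SE 0.053, adjusted p = 7.57e-05 in RBPMS-KD, log2 fold change -0.31, SE 0.053, adjusted p = 6.20e-05 in RBFOX2-KD and log2 fold change -0.41, SE 0.053, adjusted p = 2.10e-06 in QKI-KD. Tbx15, a factor of limb and skin mesenchyme, had means of 14, 9.82, 9.21 and 7.12 CPM in control, RBPMS-KD, RBFOX2-KD and QKI-KD, and its QKI-KD difference ended just short of 2-fold (log2 fold change -0.98, SE 0.063, adjusted p = 3.02e-10).

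Tbx2 and Tbx3, closely related repressors, changed in different knockdowns. Tbx2 lay at 9.71, 10.8 and 12.1 CPM in control, 4.11, 4.38 and 3.68 CPM in RBPMS-KD, 4.47, 4.51 and 4.88 CPM in RBFOX2-KD, and 11.8, 12.2 and 11.3 CPM in QKI-KD. RBPMS-KD and RBFOX2-KD lay far below control, and QKI-KD overlapped it. Tbx2 was 2.67-fold lower in RBPMS-KD (log2 fold change -1.42, SE 0.084, adjusted p = 2.03e-10) and 2.35-fold lower in RBFOX2-KD (log2 fold change -1.23, SE 0.082, adjusted p = 7.04e-10), whereas the QKI-KD difference was 0.12 (SE 0.077, adjusted p = 0.201). Tbx3 lay at 21.1, 20.4 and 21.7 CPM in control, 14.4, 11.7 and 14.3 CPM in RBPMS-KD, 17.7, 18.7 and 18.4 CPM in RBFOX2-KD, and 7.81, 7.91 and 8.41 CPM in QKI-KD. Its QKI-KD libraries were lowest, and the 4 groups did not overlap. Tbx3 was 2.62-fold lower in QKI-KD (log2 fold change -1.39, SE 0.069, adjusted p = 8.29e-12), and 1.57-fold lower in RBPMS-KD (log2 fold change -0.65, SE 0.067, adjusted p = 2.05e-07). The direct comparison of QKI-KD with RBFOX2-KD put Tbx2 2.55-fold higher (log2 fold change 1.35, SE 0.082, adjusted p = 1.33e-10) and Tbx3 2.27-fold lower (log2 fold change -1.18, SE 0.069, adjusted p = 7.91e-11).

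Tbx6, a gene of paraxial mesoderm, lay at 0.670, 0.866 and 0.933 CPM in control, 0.696, 0.828 and 0.637 CPM in RBPMS-KD, 0.405, 0.313 and 0.367 CPM in RBFOX2-KD, and 0.895, 1.13 and 1.04 CPM in QKI-KD. The RBFOX2-KD libraries were the lowest, with no overlap. It was 2.28-fold lower in RBFOX2-KD (log2 fold change -1.19, SE 0.192, adjusted p = 4.17e-05). Tbx19, a pituitary factor, was at 1.52 ± 0.199 CPM in control and 0.760 ± 0.0546 in QKI-KD (log2 fold change -0.99, SE 0.141, adjusted p = 7.56e-06).

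The largest number of member differences arose between the 2 knockdowns QKI-KD and RBFOX2-KD, a contrast that uses no control library. There 18 of 49 members changed (36.7%, with 18.4% over all genes), 12 lower and 6 higher in QKI-KD, where 10.6% and 7.74% of all genes were lower and higher. The lower ones at 1 CPM or more were Sox9, Foxn3, Foxp2, Sox4, Sox5, Sox6, Foxk2, Foxa2, Foxf1, Tbx3 and Tbx19, and the higher ones were Tbx6, Foxf2 and Tbx2. Of these, 5 (Sox9, Sox4, Sox5, Foxk2 and Foxa2) passed the test in opposite directions against control in the 2 knockdowns, lower in QKI-KD and higher in RBFOX2-KD, and Foxf2 did so the other way round. Tbx19 was at the limit (-1.002) and fell inside it in 7 of 10 alternative fits. The remaining changed members, all under 1 CPM, were Foxh1 (lower, -2.70) and Foxa3, Sox15 and Sox18 (higher, 1.29, 1.42 and 1.11). The Sox15 call against RBFOX2-KD was lost with no filter on low counts and with DESeq2. Sox15 passed the count filter only through the 3 QKI-KD libraries, so its direct calls are no support for a difference. The counts of changed members in QKI-KD against RBFOX2-KD and against RBPMS-KD include it. Neither these members under 1 CPM nor Tbx19 passed a test against the 2-fold limit (glmTreat). QKI-KD against RBPMS-KD gave 8 changed members (16.3%, with 12.2% over all genes, 6.53% lower and 5.66% higher), 4 lower (Foxf1, Foxn3, Foxp2 and Sox9) and 4 higher (Tbx2, Tbx10, Sox15 and Sox18). The Sox15 call there was lost with no filter on low counts, with DESeq2 and without any of 4 single libraries, and its difference was under 2-fold with limma on the normalised table (0.81). RBFOX2-KD against RBPMS-KD gave 3 changed members (6.12%, with 7.52% over all genes, 3.1% lower and 4.41% higher), namely Foxf2 lower and Sox5 and Foxh1 higher.

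**Figure D4:**
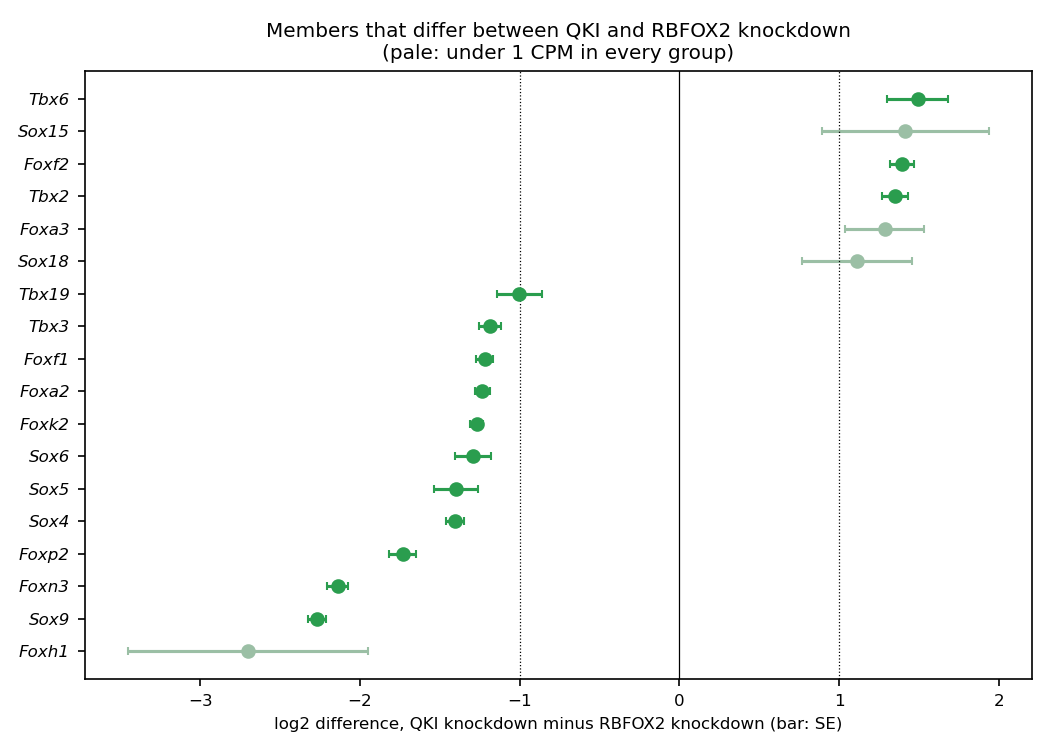
Log2 difference, QKI-KD minus RBFOX2-KD (horizontal axis, bars SE), of the 18 members that changed in this direct comparison. Points left of 0 are lower in QKI-KD, with Sox9 at -2.27 and Foxn3 at -2.14, and points right of 0 are higher, with Foxf2 at 1.39 and Tbx2 at 1.35. Pale points are members under 1 CPM in every group.

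Of the tested members, 12 stayed under 1 CPM in every group, and the 5 of them that changed rest on few counts. Foxh1, a cofactor of nodal signalling, had 48, 34 and 44 counts in RBFOX2-KD against 4, 2 and 12 in control (log2 fold change 2.75, SE 0.744, adjusted p = 0.00415), with 6 libraries over the count filter, among them all 3 of RBFOX2-KD. Sox15 had 14, 12 and 11 counts in QKI-KD against 3, 4 and 3 in control (log2 fold change 1.96, SE 0.560, adjusted p = 0.00529), and it passed the filter only through the 3 QKI-KD libraries, so that the filter itself required a difference. Its call against control was lost with no filter on low counts, and its difference was under 2-fold with limma on the normalised table (0.89).

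The SoxF gene Sox18, a factor of endothelium, had 40, 42 and 30 counts in QKI-KD against 10, 22 and 14 in control (log2 fold change 1.41, SE 0.351, adjusted p = 0.00192). Its difference was just under 2-fold with limma on the normalised table (0.97). Of 8 endothelial markers, 5 were tested, and in QKI-KD 3 passed the test as higher (Tie1, 2.14, Pecam1, 1.27, and Tek, 0.66) and 1 as lower (Cdh5, -1.18). Cdh5 was the most abundant of them, and the sum of all 8 lay between 8.75 and 10.8 CPM in control and between 6.54 and 6.86 in QKI-KD. Without Cdh5 it lay between 2.36 and 3.32 CPM in control and between 3.31 and 4.32 in QKI-KD. Their part in the Sox18 difference was not tested. Sox8, a SoxE gene, had 13, 6 and 12 counts in QKI-KD against 26, 28 and 30 in control (log2 fold change -1.33, SE 0.562, adjusted p = 0.046), and it passed the filter in all libraries of the control group only. The Sox8 call was lost with DESeq2, with library totals only and without any of 7 single libraries. Tbx10 was lower in RBPMS-KD (10, 9 and 11 counts against 34, 31 and 55, log2 fold change -1.77, SE 0.388, adjusted p = 7.73e-04) and in RBFOX2-KD (17, 23 and 13 counts, log2 fold change -1.21, SE 0.358, adjusted p = 0.00767), and the second was lost without the third control library. None of the 5 passed a test against the 2-fold limit. The other 7 did not change against control, and among them Foxa3 passed the test in QKI-KD (0.80, adjusted p = 0.00745) and Sox30, a testis gene, in RBPMS-KD (-0.61, adjusted p = 0.0432). The Sox30 call was lost with no filter on low counts, with DESeq2, with the 6 libraries compared only, with the replicate number as a block and without any of 8 single libraries.

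The remaining 27 members did not have enough counts to be tested. Of these, 10 had 0 counts in every library (Foxb1, Foxd3, Foxe1, Foxi1, Foxl2, Sox1, Sox3, Sox14, Sox17 and Tbx20). If fragments were counted singly, this at these depths allows up to 3 counts per library, or at most 0.0282 CPM. The other 17 had at least 1 count and at most 24 in any library, the highest being Tbx21, the T-cell factor T-bet, with 73 counts over 12 libraries. The pluripotency factor Sox2 had 2 counts in all and the heart and lung factor Tbx5 had 4. Sox10, the glial SoxE factor, had 19 counts in all, and together with Foxd3 it belongs to 7 Schwann and neural crest markers whose summed level lay between 5.44 and 8.17 CPM. Of the member values from 1 to 19, 81.8% were even, against 49.7% of those above 1000, a pattern that single counting of fragments would not give. The smallest counts and the limit of 0.0282 CPM are therefore uncertain.

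**Figure D5:**
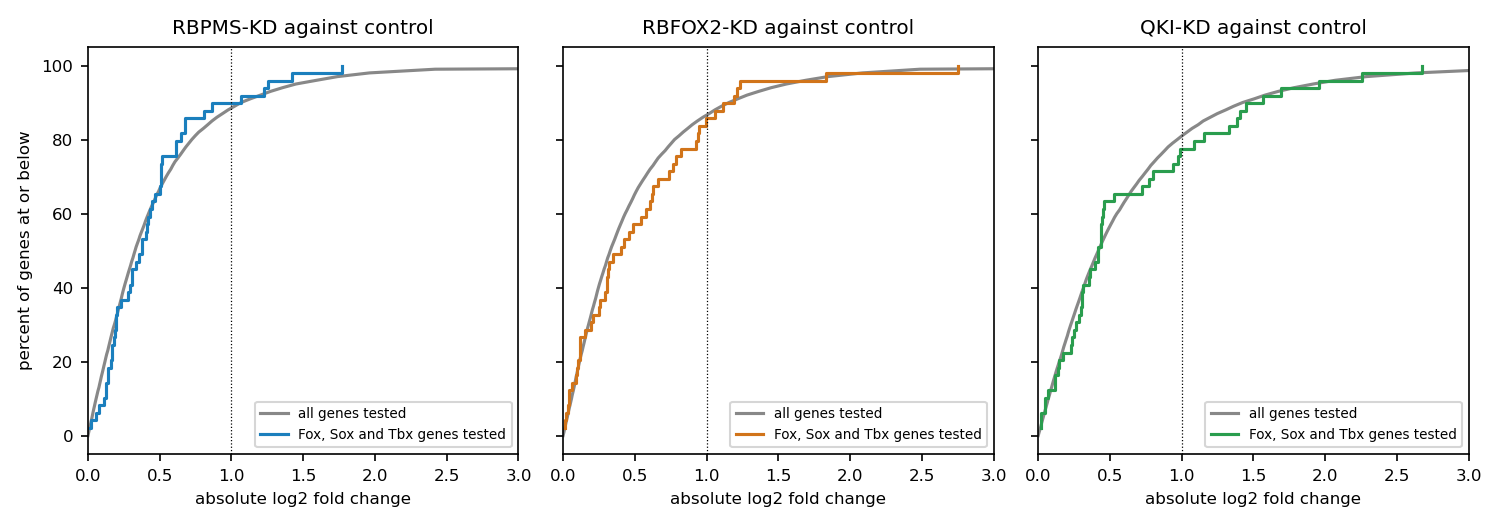
Percent of genes (vertical axis) with an absolute log2 fold change at or below the value on the horizontal axis, for the 49 members tested (coloured) and all 18438 genes tested (grey), with a dotted line at 2-fold. The curves run close together in RBPMS-KD, and in QKI-KD 22.4% of members and 17.5% of all genes were changed.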

How the data were processed

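RNA levels were measured in 12 libraries, 3 in each of 4 groups taken from the sample titles. The authors deposited raw counts per gene, made per the study's methods with STAR on the assembly mRatBN7.2 and featureCounts with a RefSeq annotation after reads were subsampled, and a normalised signal for 22320 genes, which the authors made with the noise filter noisyR and quantile normalisation. The totals of the deposited counts differ between libraries (111 to 152 M), which subsampling to 1 common depth would not give, so whether that step was applied to this table is unclear. The submitters' processing notes name STAR 2.5.2a, FastQC 0.11.2, MultiQC 1.8, edgeR 3.28.1 and DESeq2 1.30.0. Whether counting used strand, and how reads shared by paralogues such as Foxc1 and Foxc2 or Sox4 and Sox11 were treated, is not given in the sources used here, so values of close relatives are uncertain to that extent.

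The counts went into edgeR 4.0.16 under R 4.3.3 (filterByExpr, TMM, glmQLFit and glmQLFTest, two-sided), with all 12 libraries in 1 fit, so that the spread was estimated over all groups, and Benjamini-Hochberg adjustment over 18438 genes. The threshold (adjusted p under 0.05 with a log2 fold change beyond 1 in either direction) follows the study. The study's own calls came after its noise filter and quantile normalisation. For the RBPMS knockdown of this experiment it reports fewer changed genes than the 1781 found here. SE is the absolute log2 fold change over the square root of F. With 3 libraries against 3 an exact permutation test cannot go below 0.1, so p-values rest on the model. The study's methods state at least 3 biological replicates for each experiment, whereas the labels do not say that libraries came from separate cultures. The p-values measure the spread between these libraries. No pair of libraries was a duplicate within sampling noise. The scripts were tested on simulated data. Alternatives used DESeq2 1.42.0, limma 3.58.1 on log2(normalised signal + 1), other scalings and filters, and the omission of each library.

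Members at 1 CPM or more in some group are named with their level, and those that changed, and the one with the most counts in each family, with every library. Changed members below 1 CPM are named, as are list genes that changed at 5 CPM or more, up to 4 for each list and knockdown, the siRNA targets, and members that moved in opposite directions. The members and lists were chosen with earlier results of these data known. Gene order and promoter windows came from RefSeq tables of GRCr8, and no transcript lengths, protein sequences or genome of the authors' build were used here. The values of 1 member are not reported here.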

Additional observations from a re-analysis of the deposited data

Results flagged for a closer look

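The members below differed between 2 knockdowns by more than 2-fold in the direct edgeR test, after passing the test against control in opposite directions. Every value is a log2 difference with its SE and its adjusted p, and the cause of none was tested.

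For Sox9, QKI-KD minus RBPMS-KD was -1.59 (SE 0.055, adjusted p = 1.32e-13) and QKI-KD minus RBFOX2-KD was -2.27 (SE 0.056, adjusted p = 9.98e-16). All 3 QKI-KD libraries were below control and all 3 libraries of the other 2 knockdowns above it, narrowly so in RBPMS-KD, where the difference from control failed the test with DESeq2, with limma, with library totals only and without any of 5 single libraries.

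For Sox4, QKI-KD minus RBFOX2-KD was -1.40 (SE 0.057, adjusted p = 6.46e-13). For Sox5 the same difference was -1.40 (SE 0.137, adjusted p = 7.76e-08), and RBFOX2-KD minus RBPMS-KD was 1.04 (SE 0.135, adjusted p = 4.51e-06), a value that ended short of 1 with limma on the normalised table (0.92). The RBPMS-KD side of this pair, Sox5 lower than control, failed the test with limma and without the third control or the third RBPMS-KD library.

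For Foxf2, RBFOX2-KD minus RBPMS-KD was -1.29 (SE 0.075, adjusted p = 3.03e-10) and QKI-KD minus RBFOX2-KD was 1.39 (SE 0.075, adjusted p = 2.84e-11). For Foxk2 and Foxa2, QKI-KD minus RBFOX2-KD was -1.27 (SE 0.041, adjusted p = 3.08e-14) and -1.23 (SE 0.048, adjusted p = 3.70e-13). Groups of 3 libraries were too small to screen single libraries as outliers.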

How the results depend on the processing

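Over 10 alternative fits and 12 fits that each left out 1 library, 120 differences of single members gave 2552 values, of which 2420 kept their direction and their side of the threshold, 132 kept their direction and lost the threshold, and 0 reversed. Outside the fits without a library, 65 were lost. A test against the 2-fold limit itself (glmTreat), which is stricter by construction, left 1 changed member in RBPMS-KD, 2 in RBFOX2-KD and 7 in QKI-KD, 1 in RBFOX2-KD against RBPMS-KD and 5 in QKI-KD against RBPMS-KD. In QKI-KD against RBFOX2-KD it left 13 of the 18. It left 3 of the FoxO list in RBPMS-KD, and of the SOX9 list 1 in RBPMS-KD, 0 in RBFOX2-KD and 3 in QKI-KD. A filter at a mean of 50 counts, which tested 38 members, left 5 in QKI-KD against RBPMS-KD. The SOX9 list in RBFOX2-KD held 2 changed genes with no filter, with the 6 libraries compared only or with counts halved, and 0 with limma on the normalised table, where QKI-KD held 3. The cause of these differences was not tested.

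Leaving out 1 library gave 3 to 5 changed members in RBPMS-KD, 6 to 8 in RBFOX2-KD and 10 to 12 in QKI-KD, 2 to 4 in RBFOX2-KD against RBPMS-KD, 7 to 11 in QKI-KD against RBPMS-KD and 15 to 20 in QKI-KD against RBFOX2-KD. The FoxO list held 6 to 7, 5 to 6 and 8 to 10 in RBPMS-KD, RBFOX2-KD and QKI-KD. The SOX9 list held 3 to 6 in RBPMS-KD (5 without control 2 and 6 without RBPMS-KD 1), 1 to 3 in RBFOX2-KD (3 without control 2, and 2 without control 3, RBPMS-KD 1, RBPMS-KD 2 or RBFOX2-KD 3) and 4 to 5 in QKI-KD.

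Scaling by library totals only moved the median of all genes by 0.13 in QKI-KD against RBPMS-KD, and by less than 0.1 in the other 5 comparisons. Over 18 pairs of libraries with the same replicate number, deviations from the group means correlated between -0.0545 and 0.0389, and 2 of 12 libraries correlated best with their own number, so the numbers were not taken as pairing. With the number as a replicate block, 4 members changed in RBPMS-KD, 7 in RBFOX2-KD and 11 in QKI-KD, the same counts as without it. Members under 1 CPM are limited by depth.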
